A study of Mus musculus with 23 samples.

Results

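The neuron genes are 10 genes that neurons express and that immune cells are not known for. Tubb3, Stmn2, Nefl, Nefm and Map2 belong to the cytoskeleton, and Syp and Syt1 to the synaptic vesicle. The others are Snap25 of vesicle release, Rbfox3 of the nucleus and Gad1 of GABA synthesis. All were chosen by name, and 9 of the 10 are among the 19945 genes of the deposited mouse table. Map2, which binds microtubules in dendrites, is not analysed here. The 23 RNA-seq libraries come from transferred or cultured ILC2s, innate lymphoid cells of the type 2 class by their label, in 4 groups: brain on day 5 (6 libraries), blood on day 5 (6), blood on day 1 (6) and a baseline from culture (5). All 4 groups start from male mice of 8 to 10 weeks, labelled B6.Cg-Tg(CAG-GFP)Smoc and given as both transgenic and wild-type, that received IL-33 every 2 days for 7 days. Lineage-negative CD25+ cells of their bone marrow and spleen were cultured for 14 days with IL-2 and IL-33 plus IL-7 and IL-15, and CD45+Lin-ST2+KLRG1+CD127+ cells were sorted. For the brain and blood groups such cells were given intravenously, 6 hours after a stroke made by closing the middle cerebral artery (MCAO), while the baseline cells were not transferred. The promoter named in the GFP label, CAG, is active in most cell types. How cells were gated on recovery, and whether replicates came from separate animals, is not given in the sources used here, so p-values measure the spread between these libraries, which may be in part technical.

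Neurons hold their shape with microtubules, in which Tubb3 is a beta-tubulin and Stmn2 a regulator of growth cones, and with neurofilaments, of which Nefl and Nefm are the light and medium subunits. At the synapse, Syp is an abundant protein of the vesicle membrane, Syt1 senses calcium for release, and Snap25 is the membrane SNARE that joins vesicle to membrane. Rbfox3 is the splicing factor seen by the NeuN antibody, and Gad1 makes GABA from glutamate in inhibitory neurons. Outside neurons many such genes carry RE1 sites that bind the repressor REST.

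Promoters in RefSeq (GRCm38.p6, the mm10 build) were found for Tubb3, Syp, Gad1, Syt1 and Rbfox3 among the genes measured. Those of Tubb3, Syp and Gad1 are shown because the values of these genes followed different patterns over the groups. Each is written 5′ to 3′ on the plus strand, from 250 bases before the RefSeq start up to the next exon base of GENCODE M21. Capitals mark a GC box, written GGGCGG, or a TATA box. The letters searched for the TATA box were TATAAA. Both motifs were searched on both strands, and no match lies in the stretch shown for Syp.
Tubb3 chr8:123411303-123411423: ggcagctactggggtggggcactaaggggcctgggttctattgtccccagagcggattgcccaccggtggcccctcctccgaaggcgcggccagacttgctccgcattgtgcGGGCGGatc
Syp chrX:7638330-7638470: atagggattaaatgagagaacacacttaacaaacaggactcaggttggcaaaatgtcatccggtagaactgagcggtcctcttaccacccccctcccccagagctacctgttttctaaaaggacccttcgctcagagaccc
Gad1 chr2:70561879-70562041: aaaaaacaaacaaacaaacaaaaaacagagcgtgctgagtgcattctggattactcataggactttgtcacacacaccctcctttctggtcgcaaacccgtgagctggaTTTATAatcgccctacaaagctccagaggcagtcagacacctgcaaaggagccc
In Gad1 the capitals are the TATA letters read on the opposite strand. Of 32851 mouse promoters of 250 bases, 32.7% hold GGGCGG and 12.4% hold TATAAA. TTCAGCACC and GGACAGCGC, the left and right parts of an RE1 site, are in 0.301% and 0.304% of them and in 0 of the 6 promoters of these 5 genes. These letter matches describe the windows only.

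Libraries held 11.6 to 58.1 M reads. Batch 1 of the labels (12 libraries) held 11.6 to 16.9 M each and batch 2 (11 libraries) 27.8 to 58.1 M, and each batch holds libraries of all 4 groups. Values are normalized counts, reads divided by 1 factor per library, in which 1 read was worth 0.383 to 3.10. The 3.10 belongs to blood day 1 replicate 2, whose normalized total was 45458796, against 16878074 to 28861303 in the other libraries. Its normalized counts are thus larger for the same share of reads. Across genes, the median correlation with its own group was lowest for blood day 1 replicate 2 (0.773), brain replicate 2 (0.795), blood day 1 replicate 6 (0.836) and, within the baseline, replicate 5 (0.852), and results are also given without these 4 libraries. The labelled cell type was checked with 8 ILC2 identity genes. Their summed normalized count was 1889.9 to 3855.5 in brain libraries, 36062.0 to 51097.7 in blood day 5, 13625.7 to 37406.4 in blood day 1 and 42190.9 to 91780.7 in the baseline. In such bulk libraries, fewer cells of a type and less RNA per cell cannot be told apart.

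Of the 9 genes, 6 were higher in brain than in blood on day 5 (Tubb3, Nefm, Syt1, Stmn2, Syp and Rbfox3), in a comparison in which 33.6% of all 15268 genes tested were called higher. Against blood on day 1, 6 were higher in brain (Tubb3, Nefm, Nefl, Syp, Rbfox3 and Syt1), where 37.3% of all genes were. Against the baseline, 7 were higher in brain (Syp, Stmn2, Tubb3, Nefm, Snap25, Rbfox3 and Gad1), where 37.5% of all genes were. None of the 9 was lower in brain in these 3 comparisons, in which the test was limma on log2(normalized count + 1) with a Benjamini-Hochberg adjusted p under 0.05. The 3 comparisons share the brain libraries. All 9 genes passed the filter, a normalized count of 10 or more in 5 or more of the 23 libraries, but Nefm, Rbfox3 and Snap25 passed it only with the brain libraries, in which they are high, so their part in the counts is a description. Among the 6 other genes, 4 were higher in brain in each of the 3 comparisons. Outside the brain a value of 10 was reached in 1 library by Nefm, 3 by Rbfox3, 4 by Snap25, 6 by Nefl, 7 by Syt1, 10 by Stmn2, 12 each by Syp and Gad1, and 17 by Tubb3. The median log2 difference over all genes was 0.47 in brain over blood on day 5, and 0.08 when libraries were scaled to equal totals.

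**Figure D1:**
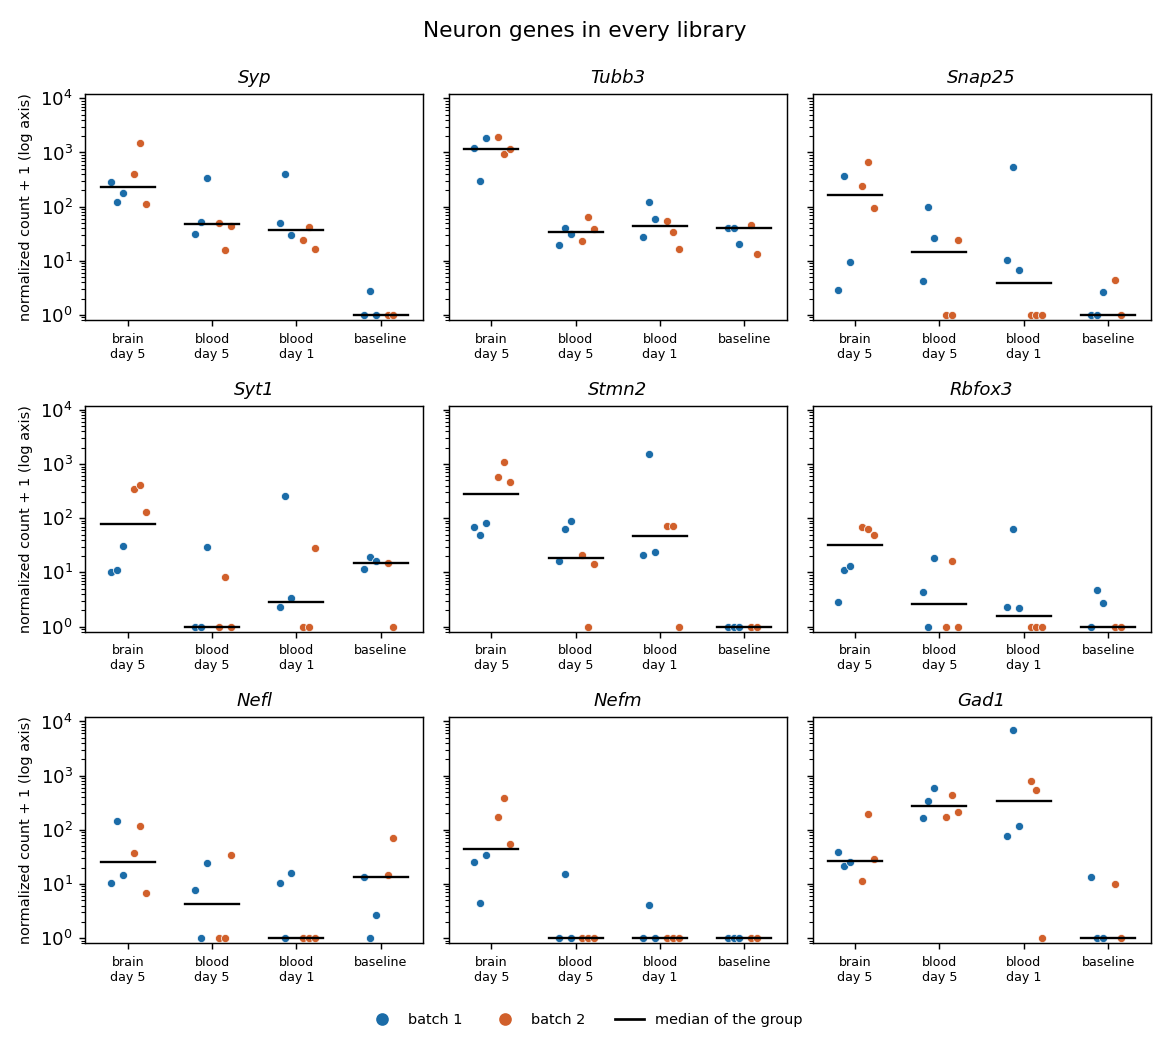
Normalized count + 1 (log axis) of the 9 neuron genes in every library, by group, with batch 1 in blue, batch 2 in orange and the group median as a black line. Tubb3 in brain libraries sits at 294.8 to 1951.0, above every other library, while Gad1 is highest in blood libraries and reaches 7012.6 in blood day 1 replicate 2.

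Tubb3 (chr8:123411424-123422015, plus strand) had brain libraries that overlapped with no other group. Its normalized counts had a lowest value of 294.8, a median of 1173.3 and a highest value of 1951.0 in brain libraries, against 18.2, 33.6 and 63.8 in blood day 5. In blood day 1 they were 15.7, 43.4 and 120.7, and in the baseline libraries 39.7, 40.2, 19.8, 45.4 and 12.6. Every brain library lay above every other library, and the 3 other groups overlapped. The share of all genes with such a split was not counted. The log2 difference was 4.99 ± 0.59 (SE) over blood day 5 (adjusted p = 1.99e-07, limma), 4.63 ± 0.59 over blood day 1 (6.15e-07) and 5.17 ± 0.62 over the baseline (2.12e-07). Within batches the difference over blood day 5 was 4.93 in batch 1 and 5.05 in batch 2, and edgeR gave 4.68 (adjusted p = 3.65e-06). Leaving out any 1 library, or the 4 named above, kept all 3 calls. No run of 50 bases of its transcripts occurs in another gene's transcripts, so its reads are not shared with the other beta-tubulins on that length.

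Stmn2 (chr3:8509360-8561606, plus strand) had 47.7, 274.7 and 1099.5 (lowest, median, highest) in brain libraries, 0.0, 17.2 and 88.5 in blood day 5 and 0.0, 45.9 and 1514.0 in blood day 1, and no read in any of the 5 baseline libraries. The brain libraries of batch 2 held 584.8, 1099.5 and 468.4, and those of batch 1 held 67.3, 47.7 and 80.9, which lies within the range of the blood libraries. The difference over blood day 5 was 3.60 ± 1.31 (adjusted p = 0.0266, limma), with 0.53 in batch 1 and 6.66 in batch 2. The call was lost without blood day 5 replicate 5 or without brain replicate 4, 5 or 6 (adjusted p 0.0586 to 0.0841), and with edgeR (0.0835). Over blood day 1 the value was 2.41 ± 1.31 (0.129), and it passed without blood day 1 replicate 2, the library at 1514.0 (3.47, 0.0171), and without the 4 libraries named above (2.79, 0.0361). Against the baseline, the brain mean was at least 97.4-fold higher, taking 3 reads in each baseline library as the floor, and at least 12.4-fold in batch 1 alone.

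Nefm (chr14:68082590-68124846, minus strand) had 3.4, 43.2 and 393.2 in brain libraries. It had reads in 1 of 6 blood day 5 libraries (replicate 2, at 14.0), in 1 of 6 blood day 1 libraries (3.1, a single read) and in none of the 5 baseline libraries. The brain libraries lay above all blood day 1 and baseline libraries, but brain replicate 2, at 3.4, held only 2 reads. That is against the 1 read, at 3.1, of blood day 1 replicate 2, so this split rests on single reads. Brain replicate 2 also lay below blood day 5 replicate 2. The share of all genes with such a split was not counted. The difference over blood day 5 was 4.97 ± 0.85 (adjusted p = 3.24e-05, limma; 0.0263 with edgeR), with 2.66 in batch 1 and 7.28 in batch 2. Since Nefm passed the filter through the brain libraries, the fit over all genes without a filter bears on it more directly, and there the adjusted p was 4.92e-05. The mean was 114 in brain and 0.516 in blood day 1, and the ratio of pooled read rates, in which deeper libraries weigh more, was 1179 (95% counting interval 211 to 46602). Over the baseline the brain mean was at least 28.3-fold higher, or at least 3.81-fold in batch 1.

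Nefl (chr14:68083863-68089095, plus strand) lies on the opposite strand across part of Nefm, with 1108 bases of exon in common, 32.8% of the Nefl exons and 19.2% of those of Nefm. The strand setting of the counting is not given in the sources used here, so reads of these bases cannot be told apart. Nefl had 5.9, 24.9 and 146.6 in brain libraries, 0.0, 3.3 and 32.7 in blood day 5, 0.0, 0.0 and 15.2 in blood day 1, and 12.6, 0.0, 1.7, 13.6 and 70.2 in the baseline libraries. All groups overlapped, and the order of libraries differed from that of Nefm (Pearson r 0.01 over the 6 brain libraries, which share batch and depth). The difference was 2.79 ± 1.20 over blood day 5 (adjusted p = 0.0612, limma), 3.66 ± 1.20 over blood day 1 (0.0139) and 1.87 ± 1.27 over the baseline (0.239). The blood day 1 call was lost with edgeR (0.110) and without the 4 libraries named above (0.0968), and the blood day 5 value passed without blood day 5 replicate 3 or 6 or brain replicate 6 (0.0244 to 0.0418).

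Of the vesicle genes, Syp (chrX:7638471-7653256, plus strand) was found in all brain and blood libraries. Its values were 111.7, 230.5 and 1500.4 in brain libraries, 15.1, 46.4 and 338.0 in blood day 5 and 15.7, 35.3 and 402.5 in blood day 1, against 1 read in the 5 baseline libraries together. Brain and blood overlapped through blood day 5 replicate 3 (338.0) and blood day 1 replicate 2 (402.5), the only blood libraries above 50.3. The difference was 2.40 ± 0.82 over blood day 5 (adjusted p = 0.0184, limma), 2.55 ± 0.82 over blood day 1 (0.0121) and 7.85 ± 0.86 over the baseline (5.51e-08). The first was 1.82 (0.0650) without brain replicate 5, the library at 1500.4, and edgeR gave 0.0514 and 0.0511 for the comparisons with blood. An antisense gene, Gm14703, covers 16.8% of the Syp exons, and its reads cannot be told apart from those of Syp either.

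Syt1 (chr10:108497650-109010982, minus strand) had 9.3, 78.8 and 404.1 in brain libraries, 0.0, 0.0 and 28.4 in blood day 5, and 0.0, 1.8 and 253.9 in blood day 1. The baseline libraries held 10.8, 18.3, 14.9, 13.6 and 0.0. The batch 2 brain libraries (344.8, 404.1 and 128.3) lay above all but 1 of the other libraries, and 2 of those of batch 1 (9.3 and 10.2, with 29.3 in the other) lay within the range of the baseline. The difference over blood day 5 was 4.66 ± 1.37 (adjusted p = 0.00673, limma; 0.0612 with edgeR) and over blood day 1 3.35 ± 1.37 (0.0445; 0.404 with edgeR). The second call was lost without any 1 of 7 libraries: blood day 1 replicates 1, 3, 4 and 5, and brain replicates 4, 5 and 6 (0.0787 to 0.111), and with the replicate number as a block (0.0607). Over the baseline the value was 2.85 ± 1.44 (0.108), with -0.01 in batch 1 and 6.11 in batch 2.

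Snap25 (chr2:136713453-136782428, plus strand) had few reads in some brain libraries and many in others. It had 364.7 in brain replicate 2, 236.6, 676.1 and 95.1 in brain replicates 4 to 6, and 1.9 and 8.6 in brain replicates 1 and 3. Blood day 5 libraries held 0.0, 13.4 and 96.3 (lowest, median, highest), blood day 1 libraries 0.0, 2.9 and 529.4, and the baseline 0.0, 0.0, 1.7, 3.4 and 0.0. Over the baseline the difference was 5.59 ± 1.61 (adjusted p = 0.00576, limma). Over blood day 5 it was 3.19 ± 1.54 (0.0939) and over blood day 1 3.67 ± 1.54 (0.0503). These 2 values passed without brain replicate 1 (0.0197 and 0.00991) or brain replicate 3 (0.0464 and 0.0249), and the value over blood day 1 also without blood day 1 replicate 2 (0.00474), without the 4 libraries named above (0.0294), with equal library totals (0.0435) and with the replicate number as a block (0.0450). Snap25 passed the filter only with the brain libraries. In the limma fit over all genes without a filter, its adjusted p was 0.00804 over the baseline, 0.108 over blood day 5 and 0.0608 over blood day 1.

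Rbfox3 (chr11:118489762-118911597, minus strand) was low throughout, with 1.9, 30.4 and 68.9 in brain libraries, 0.0, 1.7 and 17.4 in blood day 5, 0.0, 0.6 and 61.9 in blood day 1 and 0.0, 3.7, 1.7, 0.0 and 0.0 in the baseline. The brain libraries of batch 2 held 68.9, 62.6 and 48.8, and those of batch 1 held 1.9, 10.2 and 12.1. The difference was 2.69 ± 1.06 over blood day 5 (adjusted p = 0.0404, limma), 3.03 ± 1.06 over blood day 1 (0.0204) and 3.73 ± 1.12 over the baseline (0.00756). The first was lost without any 1 of 7 libraries, blood day 5 replicates 1, 2, 4 and 6 and brain replicates 4, 5 and 6 (0.0570 to 0.101), with edgeR (0.211) and with the replicate block (0.0522). The second was lost without brain replicate 4 (0.0551) or 5 (0.0534) and with edgeR (0.299). Rbfox3 passed the filter only with the brain libraries. In the limma fit over all genes without a filter, its adjusted p was 0.0481 over blood day 5, 0.0255 over blood day 1 and 0.0101 over the baseline.

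Gad1 (chr2:70553072-70602014, plus strand) ran the other way in blood. Its values were 10.4, 25.7 and 197.0 in brain libraries, 165.4, 277.4 and 601.8 in blood day 5 and 0.0, 334.1 and 7012.6 in blood day 1, against 12.6, 0.0, 0.0, 8.8 and 0.0 in the baseline. Among brain libraries replicate 5 alone (197.0) exceeded the lowest blood day 5 library, and blood day 1 replicate 6 had no read. The brain difference was -3.11 ± 1.40 over blood day 5 (adjusted p = 0.0722, limma), beside 14.3% of all genes called lower there, and -2.40 ± 1.40 over blood day 1 (0.158). The first passed without brain replicate 5 (-3.71, 0.0413), with equal library totals (-3.51, 0.0370) and without the 4 libraries named above (-3.08, 0.00344). The second passed without blood day 1 replicate 6 (-3.92, 0.00348), with edgeR (-4.89, 0.00801) and without the 4 libraries (-2.89, 0.0109). Over the baseline, brain was higher by 3.69 ± 1.47 (0.0417). This was lost without any 1 of 7 libraries, baseline replicates 2, 3 and 5 and brain replicates 1, 3, 5 and 6 (0.0506 to 0.0983), and with edgeR (0.0717). Of the 50-base runs in Gad1 transcripts, 1.45% also occur in its pseudogene Gad1-ps.

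**Figure D2:**
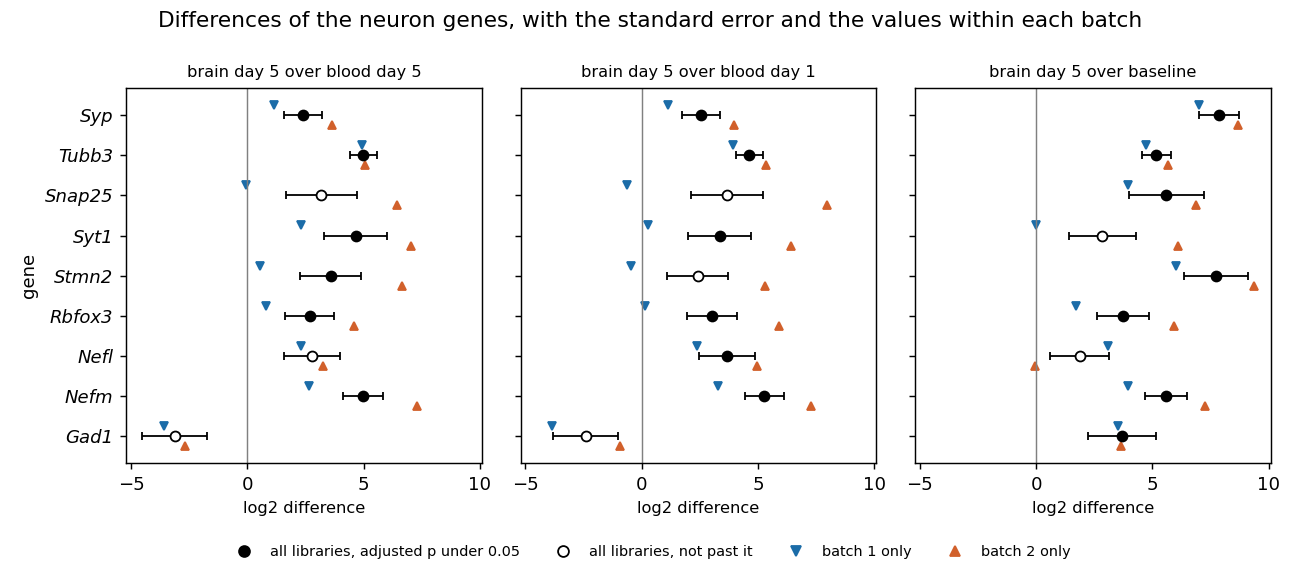
Log2 difference of each neuron gene in brain day 5 over each other group: circles with SE bars are fitted to all libraries (filled where the adjusted p is under 0.05), triangles are the differences of means within batch 1 (blue) and batch 2 (orange). Tubb3 has nearly the same value in both batches over blood day 5 (4.93 and 5.05), while Snap25 has -0.04 in batch 1 and 6.42 in batch 2.

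Of the 9 genes, 4 had brain levels that did not overlap between the batches. The mean brain level was 292 in batch 2 and 16.3 in batch 1 for Syt1, 718 and 65.3 for Stmn2, 207 and 20.1 for Nefm, and 60.1 and 8.05 for Rbfox3, with every batch 2 brain library above every batch 1 brain library, a split that 10.3% of all genes tested showed. For Tubb3 the means were 1339 and 1127, and for Nefl 53.6 and 56.6. Tested in batch 1 alone, 1 of the 9 genes was higher in brain than in blood on day 5, where 26.2% of all genes were, and 2 were higher than in blood on day 1, where 27.8% were. In batch 2 alone these counts were 7 (27.7% of all genes) and 8 (29.5%). Against the baseline they were 4 in batch 1 (30.3%) and 7 in batch 2 (33.8%). The batch 2 libraries are also the deeper ones, and the part of depth in this was not tested, nor was the difference between batches itself.

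Between the blood days, 0 of the 9 genes differed by limma, and 0 did by edgeR. By limma, at an adjusted p under 0.05, 0.0982% of all genes were called higher on day 5 and 0.00655% lower. At an unadjusted p under 0.05 the count of the 9 was also 0 for each tool, and the share of all genes at that level was not counted. The lowest unadjusted p was 0.348, for Syt1, which had a log2 difference of -1.31 ± 1.37. That does not show equal levels, since the standard errors ran from 0.59 for Tubb3 to 1.54 for Snap25.

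Blood cells differed from the baseline in 3 of the 9 genes, the same 3 on each day: Gad1, Syp and Stmn2 were higher in blood, where 19.6% of all genes were higher on day 5 and 18.1% on day 1. The comparisons share the baseline libraries. Gad1 was higher by 6.80 ± 1.47 on day 5 (adjusted p = 9.18e-04, limma) and by 6.08 ± 1.47 on day 1 (0.00272). Its mean in blood day 1 was 1426 with all 6 libraries and 308 without replicate 2. For Syp, the mean was 87.7 on day 5 and 93.5 on day 1, against 0.365 in the baseline, and the ratio of pooled read rates was 271 on day 5 (95% counting interval 48.3 to 10706) and 220 on day 1 (39.1 to 8695). Stmn2 was at least 8.25-fold higher on day 5 and at least 70.3-fold on day 1. The mean of Stmn2 on day 1 was 283 with all libraries and 36.4 without replicate 2, and the day 5 call was lost without blood day 5 replicate 2 (adjusted p = 0.0555) or 3 (0.0620). In batch 2, with 2 baseline libraries, 1 of the 9 genes passed on each day, beside 15.4% of all genes called higher on day 5 and 11.7% on day 1.

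Platelet transcripts also differed between the groups, and in brain over blood on day 5 the 8 platelet genes and the 3 erythroid genes tested were all lower. Of all genes tested, 14.3% were called lower there. The summed normalized count of 8 platelet genes was 444.1 to 3971.7 in brain libraries, 30849.9 to 285205.7 in blood day 5, 75628.0 to 2353967.1 in blood day 1 and 69.3 to 9906.0 in the baseline, and none of the 8 was at 0 throughout a group. Each of the 9 neuron genes was set against the platelet sum over the 12 blood libraries, on log2 scales, a relation chosen after the data were seen. Pearson r was 0.78 for Rbfox3, 0.76 for Syt1, 0.70 for Syp and 0.70 for Snap25 (permutation tests, two-sided, adjusted p = 0.0315 for each over the 9 relations). It was 0.66 for Stmn2, 0.57 for Tubb3, 0.48 for Gad1, 0.45 for Nefm and -0.08 for Nefl, which did not pass (adjusted permutation p 0.0531 to 0.835). Spearman's rho ran from 0.13 for Nefl to 0.65 for Snap25 and Rbfox3, and no adjusted permutation p was below 0.124. These permutations shuffled the 12 libraries across batches and days, so a shift between batches or days can enter the p-values. In the 6 blood libraries of batch 1, r was 0.97 for Stmn2, 0.96 for Gad1, 0.93 for Syt1, 0.88 for Rbfox3 and 0.81 for Syp (exact permutation tests, adjusted p 0.0437 to 0.0450), and 0.82 for Snap25, 0.80 for Tubb3, 0.27 for Nefm and -0.50 for Nefl, which did not pass. In the 6 of batch 2, it was 0.48 for Syt1, 0.30 for Rbfox3, 0.26 for Tubb3, -0.10 for Gad1, -0.18 for Stmn2, -0.65 for Snap25 and Nefl and -0.76 for Syp, and none of these 8 genes passed (lowest adjusted exact permutation p 0.444). For 5 genes the relation thus passed in batch 1, and for none in batch 2. Without blood day 1 replicate 2 and blood day 5 replicate 6, the libraries farthest from the median platelet sum, r was 0.50 for Rbfox3 and Syp, 0.37 for Syt1, 0.31 for Stmn2, 0.21 for Nefm, 0.17 for Tubb3 and 0.15 for Gad1, with 0.74 for Snap25 and 0.72 for Nefl. None of the 9 passed by r there (lowest adjusted permutation p 0.0552, for Snap25 and Nefl), and by rank Snap25 did (rho 0.85, adjusted p = 0.0338). Blood day 1 replicate 2 held 5.18% of its total in platelet genes and the highest Gad1 of all libraries, while blood day 1 replicate 6, with a platelet sum of 85559.8, had no read of Gad1. The part of platelets in these levels was not tested.

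Among the other neuronal genes, Nrgn, a calmodulin-binding protein of dendritic spines, was high in blood too, with 15.5, 47.3 and 128.5 in brain libraries, 2295.8, 11440.7 and 27673.0 in blood day 5, and 9766.4, 12665.6 and 184001.6 in blood day 1, the last in replicate 2.

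**Figure D3:**
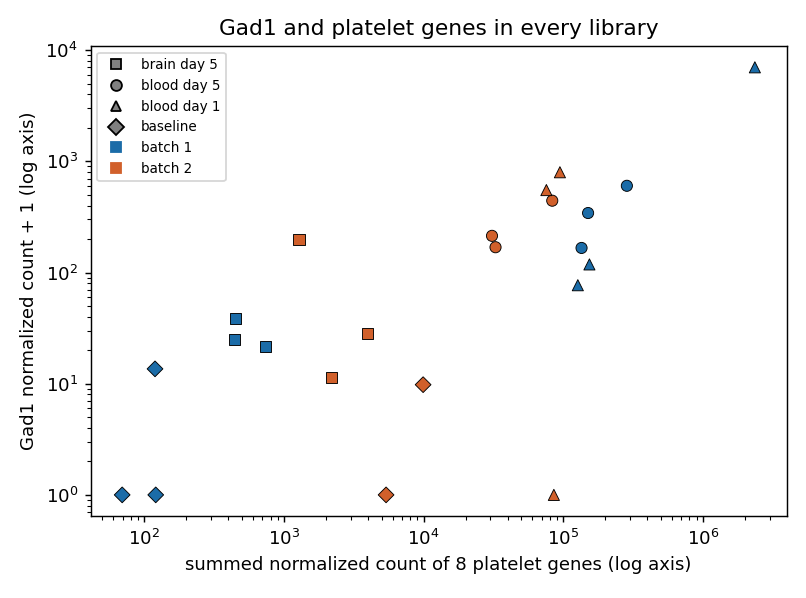
Gad1 normalized count + 1 against the summed normalized count of 8 platelet genes (both log axes) in every library, with the shape giving the group and the colour the batch. Over the blood libraries r on log2 scales is 0.48, with 0.96 in batch 1 and -0.10 in batch 2, and blood day 1 replicate 2 (7012.6 and 2353967.1) lies apart.

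Per kilobase of exon, the only scale on which levels of different genes are compared here, Tubb3 led in brain libraries with a mean of 660 ± 331 (SD, n = 6). Syp followed with 82.9 ± 103, Stmn2 with 69.9 ± 74.2 and Snap25 with 33.9 ± 38.2. Nefm (19.6 ± 25.9), Syt1 (18.5 ± 21.2), Nefl (16.3 ± 18.2), Gad1 (6.91 ± 9.32) and Rbfox3 (5.86 ± 5.06) were lowest. Below Tubb3 each neighbour in this order lay within 1 SD of the next. In blood day 1, Gad1 led with 187 ± 361 and in blood day 5 with 42.1 ± 22.9, and in the baseline Tubb3 did with 16.9 ± 7.72. Together the 9 genes made up 0.00353 to 0.0226% of the normalized total of a brain library, 0.00120 to 0.00567% of a blood day 5 library, 2.84e-04 to 0.0218% of a blood day 1 library and 1.68e-04 to 3.41e-04% of a baseline library. Different genes carried these sums. Tubb3 made up 1233 of the mean sum of 2697 in brain libraries. Gad1 made up 322 of 527 in blood day 5 and 1426 of 2007 in blood day 1.

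Over the 6 brain libraries, the 36 pairs of these genes had a median Pearson r of 0.40 (median Spearman rho 0.29) on the log2 scale, from -0.62 for Tubb3 and Nefl to 0.98 for Syt1 and Stmn2. Over all 23 libraries the median r was 0.59 (rho 0.51). These libraries share batch and depth, so the values describe them only. Of 12173 other genes tested with a brain mean of at least 100, those named Gm with digits or ending in Rik were left out of the ranking. Among the rest, the genes whose log2 levels followed the summed neuron genes most closely over the 23 libraries were Neurl1a (r = 0.947), Lzts2 (0.939), Mest (0.932), Gstt1 (0.925) and Csnk1e (0.922). Over the 6 brain libraries alone they were Trappc9 (0.993), Lhfpl3 (0.991), Ift122 (0.991), Rnf208 (0.989) and Herpud2 (0.989), with no gene in common with the first 5. Neurl1a had a mean of 490 in brain, 95.2 in blood day 5, 276 in blood day 1 and 1.04 in the baseline.

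Other neuronal genes, in lists set by name with earlier results of these data known, were read in brain over blood on day 5, where the median of all genes was 0.47. Of all genes tested there, 33.6% were called higher and 14.3% lower. List genes that are low outside the brain may have passed the filter only with the brain libraries. The counts by list, and the p-values of such genes here and in the next paragraph, are therefore a description. Of the genes named, Syt4, Snap91 and Gria1 were called in all 23 alternatives, which include the fit without a filter. Of 20 synaptic vesicle and release genes tested, 12 were higher and 0 lower (median log2 difference 4.33). They include Syt4, a synaptotagmin, at 134.6, 686.7 and 6283.6 in brain libraries against 0.0, 0.0 and 19.0 in blood day 5 (8.99 ± 1.11, adjusted p = 4.24e-07, limma), and Snap91, a clathrin assembly protein (8.67 ± 1.13, 8.71e-07). Vamp2, the vesicle SNARE that binds Snap25, was not called and had 1065.1, 2050.0 and 3088.6 in brain libraries, 925.5, 1241.6 and 2229.8 in blood day 5, and 739.4 to 1343.0 in the baseline. Of 13 cytoskeletal and axonal genes, 11 were higher and 0 lower (median 5.60), with Kif1a, an axonal transport motor, at 8.72 ± 1.29 (4.99e-06). Tubb4a, at 8.78 ± 0.93 (3.82e-08), is a tubulin that oligodendrocytes also express. Nefh, the heavy neurofilament subunit, was not called, and had 24.1, 76.4 and 309.5 in brain libraries, 30.7, 82.1 and 222.7 in blood day 5 and 189.8 to 952.4 in the baseline.

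Of 13 glutamate synapse genes, 7 were higher in brain, among them the AMPA receptor subunit Gria1 (6.64 ± 0.92, adjusted p = 2.16e-06, limma), and 1 was lower, Nrgn (-7.51 ± 1.11, 4.93e-06), with a list median of 2.54. Of 10 genes of GABA neurons, 9 were higher and 0 lower, with a median of 5.81, or 5.53 when the 5 genes without a blood day 5 read are put at their bound. Npy, a neuropeptide, was at least 390-fold higher, Dlx1 at least 151-fold and Dlx2 at least 92.7-fold, both transcription factors of forebrain interneurons, and Gad2, the second GABA enzyme, at least 32.1-fold, while Gad1 itself was not called. Of 10 excitability genes 5 were higher and 0 lower (median 2.72), with the axonal potassium channel Kcna1 at 9.27 ± 0.90 (9.25e-09). Of 13 neuronal transcription and RNA-binding genes measured, 7 passed the filter, and these 7 were higher (median 5.60), with the long noncoding RNA Snhg11 at 5.84 ± 1.08 (8.51e-05). The summed normalized count of the 13 had a median of 2609.4 in brain libraries and 58.5 in blood day 5. Of 9 broadly expressed relatives of the neuron genes, 2 were higher and 1 was lower (median 0.72): Rbfox2 was higher by 8.03 ± 0.87 (5.57e-08), Tubb6 by 0.91 ± 0.32 (0.0236), and Snap23, the SNARE of non-neuronal cells, was lower, at -1.44 ± 0.56 (0.0373). The Tubb6 call was lost with equal library totals (0.51, 0.228) and with edgeR (0.74, 0.113). Snap23 and Tubb6 were each called in 15 of 23 alternatives. Of 8 genes of the REST complex, 0 were higher and 1 was lower, Hdac1 (-0.90 ± 0.21, 0.00127), with a median of -0.38.

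**Figure D4:**
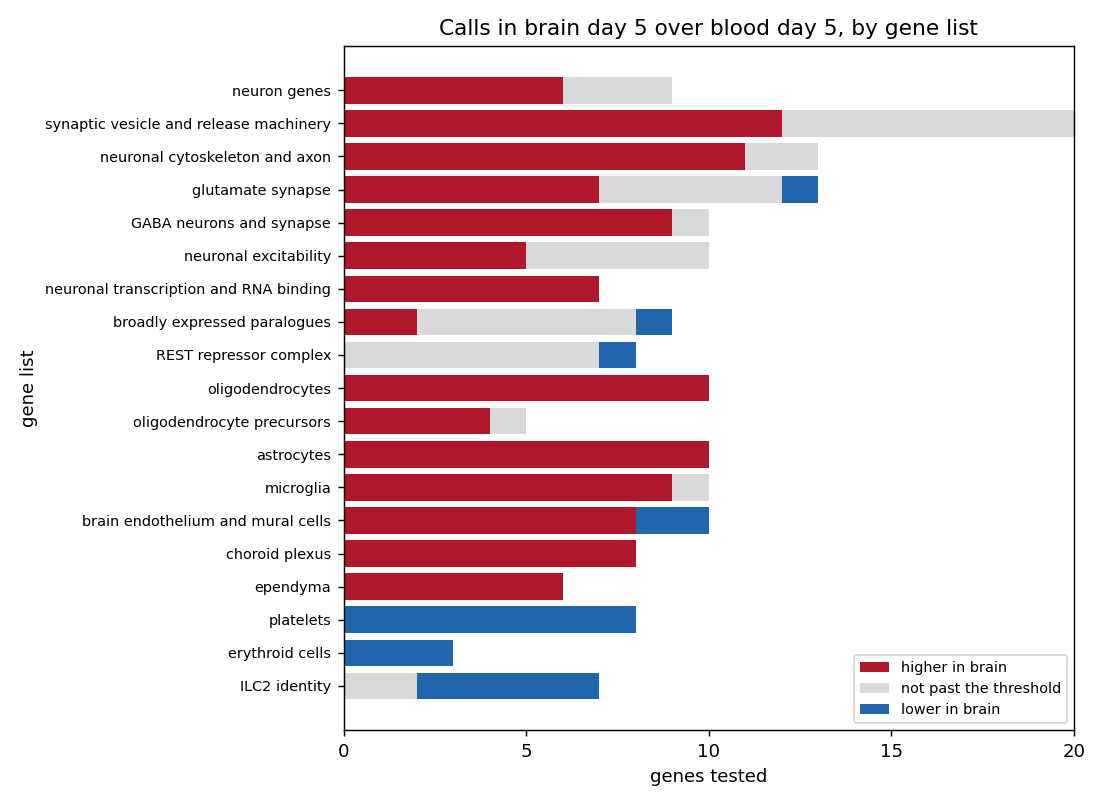
Number of genes of each list tested in brain day 5 over blood day 5 that were higher (red), lower (blue) or not past an adjusted p of 0.05 (grey). Of the neuron genes 6 of 9 were higher, of the oligodendrocyte, astrocyte, choroid plexus and ependyma lists all that were tested, and of the platelet list all 8 were lower. Of all genes tested, 33.6% were higher and 14.3% lower.

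Markers of other brain cells stood higher in the same libraries. Here too, genes low outside the brain may have passed the filter only with the brain libraries, so the counts that follow are a description. Of all genes tested in brain over blood on day 5, 33.6% were called higher and 14.3% lower. In brain over blood on day 5, 10 of 10 oligodendrocyte genes were higher (median log2 difference 8.62), as were 10 of 10 astrocyte genes (8.18), 8 of 8 choroid plexus genes (11.57), 6 of 6 ependymal genes (10.80), 9 of 10 microglial genes (4.77), 8 of 10 endothelial and mural genes with 2 lower (6.08) and 4 of 5 oligodendrocyte precursor genes (9.15). The summed oligodendrocyte genes made up 1.04 to 1.67% of a brain library's total, against 0.0679 to 0.183% in blood day 5, 0.0491 to 0.219% in blood day 1 and 0.0159 to 0.0443% in the baseline. The choroid plexus genes made up 1.45 to 7.79% of a brain library and at most 0.151% of any other. In blood day 5 the defining markers Pdgfra and Otx2 were at 0 in all libraries, and in brain libraries no gene of these lists was. Of 7 ILC2 identity genes tested, 5 were lower in brain and 0 higher (median -4.44). The part of these cell types in the neuron gene values was not tested. By library, brain replicate 2 had the highest choroid plexus share, 7.79%, with the lowest summed neuron genes, 1017.4, and brain replicate 5 had the highest summed neuron genes, 5379.4, with a choroid plexus share of 2.42%. Single genes did not all follow the sum: among brain libraries, replicate 2 had the lowest Tubb3 (294.8) and the highest Nefl (146.6).

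**Figure D5:**
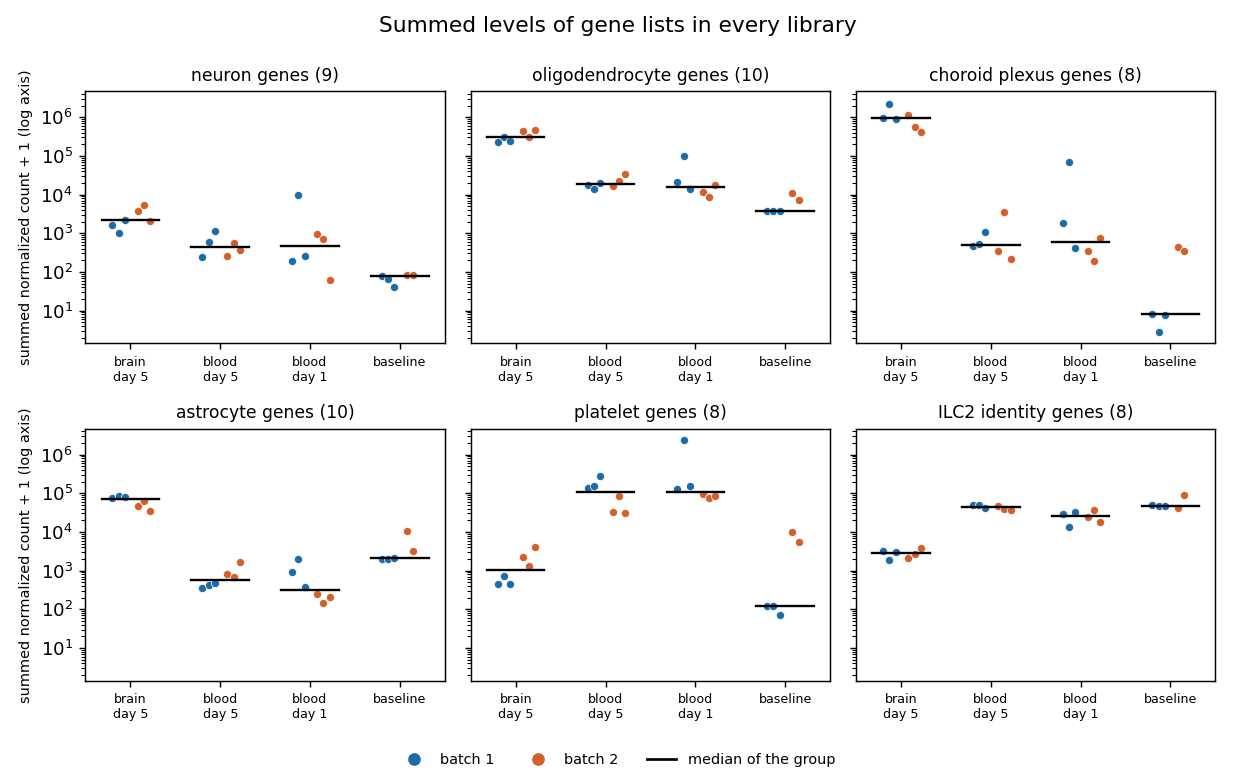
Summed normalized count + 1 (log axis) of the 9 neuron genes and of 5 other lists in every library, by group, with batch 1 in blue, batch 2 in orange and the group median as a black line. Brain libraries hold 1017.4 to 5379.4 for the neuron genes and 411904.5 to 2248962.4 for the choroid plexus genes, while the platelet genes are highest in blood.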

How the data were processed

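The 23 libraries were made from poly-A RNA and sequenced from both ends (150 bp), per the labels' protocols. The submitters' processing notes name fastp, HISAT2 2.0.5 and the mm10 genome. Which tool counted the reads, on which annotation and strand, is not given in the sources used here. Deposited signal values, which the authors named normalized counts, are reads per gene over 1 factor per library. Whole reads were recovered, since 100% of values came out whole within 0.1 read.

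Tests used limma 3.58.1 in R 4.3.3 (lmFit, eBayes with trend and robust fitting) on log2(value + 1), so folds of low genes are understated. All 23 libraries, 4 groups and the batch entered 1 model, and two-sided p-values were adjusted by Benjamini-Hochberg over the 15268 genes that reached 10 in 5 or more libraries. edgeR 4.0.16 (quasi-likelihood, TMM) on recovered reads was an alternative, beside another pseudocount, no filter, other scalings and library subsets. The fits were tested on simulated data. A group without reads was set at 3 reads per library for lower bounds, and ratios over 1 to 3 reads have 95% exact (Clopper-Pearson) intervals. Both cover counting error only. Coordinates come from GENCODE M21, which held 19931 of the 19945 symbols.

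Each library counted as 1 replicate. Libraries of a group differed beyond counting noise, but this does not show that they came from separate animals. Chi-square per degree of freedom was 4.29 to 13.1 among baseline replicates 1 to 3, and 925 to 1370 in the other baseline pairs. It was 10.4 between brain replicates 1 and 3, and 356 to 806 in the other brain pairs. Fits with these close libraries averaged were among the alternatives.

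The neuron genes, the lists and the rules were chosen with earlier results of these data known. Named list genes are up to 3 called with the largest difference and up to 2 uncalled with the highest mean per list, in brain over blood on day 5, and not all are printed. Genes like the neuron genes are the 5 with the highest r, after genes named Gm with digits or ending in Rik were left out. Gad2 was named after its values were seen. The relations of neuron genes to platelet genes (Pearson's r and Spearman's rho, 100000 resamples over 12 or 10 libraries, exact over 6) were added after seeing the data. One list of markers of another cell type is not reported here.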

Additional observations from a re-analysis of the deposited data

Results flagged for a closer look

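In groups of 5 or 6 libraries, 15 of 34 tested had a highest library whose gap to the next, as a share of the range, was above Dixon's 95% critical value, which chance reaches in about 1 in 20 groups of normally distributed values. Many of these groups are mostly 0, where a single read can exceed it, so the 15 are not to be set against that rate. Blood day 1 replicate 2 stood apart in 7 of them, with normalized counts of 402.5 for Syp, 529.4 for Snap25, 253.9 for Syt1, 1514.0 for Stmn2, 61.9 for Rbfox3, 3.1 for Nefm (a single read) and 7012.6 for Gad1. This library also had the highest normalized total, 45458796. Brain replicate 5 stood apart for Syp (1500.4) and Gad1 (197.0). In blood day 5, replicate 3 stood apart for Syp (338.0) and Syt1 (28.4), and replicate 2 for Snap25 (96.3) and Nefm (14.0). In the baseline, replicate 5 stood apart for Nefl (70.2) and replicate 2 for Syp (1.8, a single read).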

How the results depend on the processing

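The count of neuron genes called changed most with edgeR and with single batches. With edgeR it was 2 in brain over blood day 5 and 3 over blood day 1 (2 higher and Gad1 lower), beside 27.1% of all genes called higher in each, so 2 of 9 lies near the background. In batch 1 only it was 1 over blood day 5, 2 over blood day 1 and 4 over the baseline, and in batch 2 only it was 1 in each blood group over the baseline. Leaving out 1 library gave 4 to 7 in brain over blood day 5, 4 to 8 over blood day 1 and 6 to 7 over the baseline, 0 between the blood days, 2 to 3 in blood day 5 over the baseline and 3 in blood day 1 over it.

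With the replicate number as a block, the counts were 5, 6 and 7 for brain over blood day 5, blood day 1 and the baseline, and 106 of 109 single-gene results stayed on their side of the threshold. Deviations of same-numbered libraries of different groups within batches had a median r of 0.014 over 33 pairs (-0.104 to 0.189). With different numbers it was -0.008 over 66 pairs (-0.167 to 0.120). Pairs of all groups were pooled, so these values cannot decide whether the numbers pair some of the libraries.

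Over all genes, brain over blood day 5 had 5123 higher and 2183 lower calls, 4383 and 2978 with equal totals, and 4141 and 2816 with edgeR.

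Of 2480 single-gene alternatives 37 changed sign, 0 of them for a called gene, and the cause was not tested. In batch 1 only, blood day 5 over day 1 was -0.30 for Gad1, -0.67 for Rbfox3, -0.58 for Snap25 and -0.06 for Syp. There, Nefl over the baseline was 0.73 on day 1 and 0.79 on day 5, and Tubb3 on day 5 was -0.18. For brain in batch 1, Snap25 was -0.63 over blood day 1 and -0.04 over blood day 5, Stmn2 was -0.47 over blood day 1 and Syt1 -0.01 over the baseline. In batch 2 only, Nefl in brain over the baseline was -0.04, Snap25 in blood day 1 over it -1.07, and Tubb3 in blood day 5 over day 1 0.29. With edgeR, blood day 5 over day 1 was -1.97 for Gad1 and -1.35 for Snap25, and Syt1 in blood day 1 over the baseline was 1.78 (0.01 with the closest libraries averaged). Without the 4 libraries that stood apart, blood day 1 over the baseline was -0.05 for Nefm and -0.37 for Rbfox3, Tubb3 in blood day 5 over it -0.15, and Syt1 in blood day 5 over day 1 0.59. With 1 library left out, blood day 5 over day 1 ranged from -0.36 to 0.74 for Syp (with -0.05 and -0.10 between), -0.80 to 1.79 for Gad1, -0.41 to 0.71 for Nefm, -0.17 to 1.74 for Snap25 and -0.19 to 1.26 for Rbfox3 (with -0.15 between). Likewise blood day 5 over the baseline ranged from -0.12 to 0.38 for Tubb3 (with -0.01 between) and -0.15 to 0.78 for Nefm, and blood day 1 over it from -0.11 to 0.41 for Nefm, -0.28 to 1.03 for Rbfox3 and -1.69 to 0.02 for Syt1.

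In batch 1 a single read was worth 1.17 to 3.10 normalized counts and in batch 2 0.383 to 0.749, so levels of a few normalized counts rest on few reads.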
